A study of Mus musculus with 32 samples.

Results

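The genes examined here carry dietary vitamin A from the gut lumen to retinyl esters and retinoic acid, and HNF4A occupancy around them was described from ChIP-seq peaks in mouse jejunum. The 7 genes were Rbp2, Lrat, Isx, Rdh7, Rdh11, Aldh1a1 and Aldh1a7. Peaks of the 8 HNF4A lists that overlapped by 1 bp or more were joined into sites, and a site was kept when it touched the body of one of these genes or the 20 kb on either side. This left 42 sites of 45552 in all. Positions are on the mm9 mouse genome, and genes follow GENCODE M1.

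HNF4A ChIP-seq was performed on jejunal intestinal epithelial cells (IECs) from male C57BL/6J mice aged 10 to 12 weeks that were fed chow. The GF+HFM group (n = 4) was germ-free and the CV+HFM group (n = 4) was raised germ-free and then conventionalized with a microbiota for 14 days. All 8 mice received a high-fat meal (HFM), an egg yolk emulsion given by gavage, and tissue was taken 2 hours later, so every value below is postprandial and no unfed comparison is included. According to the study's methods the preparations were not sorted and consisted mainly of villus epithelium with some crypt and villus mesenchymal cells, and fewer IECs cannot be told apart from less HNF4A per cell. Peak lists carry no expression, so the tissue label could not be checked against markers here.

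HNF4A is a nuclear receptor that binds DNA as a homodimer and maintains the enterocyte and hepatocyte programmes, including lipid absorption. In the enterocyte, retinol is bound by cellular retinol-binding protein 2, encoded by Rbp2, and is esterified by lecithin retinol acyltransferase, encoded by Lrat, before the esters leave in chylomicrons. Retinol dehydrogenases and reductases such as Rdh7 and Rdh11 interconvert retinol and retinal, and the aldehyde dehydrogenase Aldh1a1 oxidises retinal to retinoic acid. Retinoic acid induces the homeobox repressor Isx, which lowers transcription of the carotenoid importer Scarb1 and of the β-carotene cleavage enzyme Bcmo1.

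Reference sequence of mm9 is shown for the site called in most libraries at Rbp2, Isx, Rdh7 and Aldh1a1, and for the only site called in every GF+HFM library and in no CV+HFM library, Rdh7 site 10. Sites are numbered along the chromosome within each gene's window. Letters run 5′ to 3′ on the plus strand, and capitals mark a stretch that matches, on either strand, the HNF4 motif CAAAGTCCA with at most 1 mismatch, or a direct repeat of AGGTCA with 1 base between the copies (DR1) with at most 2 mismatches.
Rbp2 site 2, chr9:98390791-98390955: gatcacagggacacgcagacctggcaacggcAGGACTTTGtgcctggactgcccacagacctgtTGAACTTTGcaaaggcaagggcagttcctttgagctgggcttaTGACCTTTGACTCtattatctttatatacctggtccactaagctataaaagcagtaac
Isx site 4, chr8:77420356-77420555: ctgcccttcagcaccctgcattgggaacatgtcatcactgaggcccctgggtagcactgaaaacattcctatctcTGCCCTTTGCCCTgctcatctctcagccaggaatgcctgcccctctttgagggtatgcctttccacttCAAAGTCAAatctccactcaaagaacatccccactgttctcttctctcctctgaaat
Rdh7 site 6, chr10:127325874-127326069: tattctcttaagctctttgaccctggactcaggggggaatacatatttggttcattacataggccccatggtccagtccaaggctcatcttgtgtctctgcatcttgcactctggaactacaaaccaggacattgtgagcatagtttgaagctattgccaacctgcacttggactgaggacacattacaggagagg
Rdh7 site 10, chr10:127338929-127339128: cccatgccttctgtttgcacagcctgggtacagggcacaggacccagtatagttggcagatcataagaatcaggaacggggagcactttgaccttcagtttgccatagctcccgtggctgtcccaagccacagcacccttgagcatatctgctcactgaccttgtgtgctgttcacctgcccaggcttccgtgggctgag
Aldh1a1 site 9, chr19:20730695-20730894: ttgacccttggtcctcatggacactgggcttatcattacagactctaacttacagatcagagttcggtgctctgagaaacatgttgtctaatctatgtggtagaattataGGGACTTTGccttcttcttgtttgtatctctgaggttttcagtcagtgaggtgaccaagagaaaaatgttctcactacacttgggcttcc

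The Rbp2 stretch ends at the last base before the annotated gene start and holds 3 marked matches. They read, on the minus strand, CAAAGTCCT from 98390822 to 98390830, CAAAGTTCA from 98390855 to 98390863 and the DR1 match GAGTCAAAGGTCA from 98390898 to 98390910. Isx site 4 holds CAAAGTCAA on the plus strand from 77420499 to 77420507 and the DR1 match AGGGCAAAGGGCA on the minus strand from 77420431 to 77420443. Aldh1a1 site 9 holds CAAAGTCCC on the minus strand from 20730805 to 20730813. The stretches shown for Rdh7 sites 6 and 10 hold no match at these limits.

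The sites were unevenly spread over the genes. Rdh7 had 11 sites, Rbp2 and Aldh1a1 had 9 each, Isx had 8, Rdh11 had 4, Lrat had 1 and Aldh1a7 had 0. Among 22367 protein-coding genes, the same window held a median of 2 sites, and 34.5% of genes had 0. At least 1 site was found at 65.5% of protein-coding genes and at 6 of the 7 vitamin A genes. At least 8 sites were found at 9.74% of protein-coding genes and at 4 of the 7 vitamin A genes. Rdh7 lay at the 96.5th percentile of site number, Rbp2 and Aldh1a1 at the 93.7th, Isx at the 91.5th, Rdh11 at the 73.4th, Lrat at the 42.1st and Aldh1a7 at the 17.3rd. Per 100 kb of window, Rdh7 had 24.4 sites (99.6th percentile of genes), Rbp2 15.2, Isx 13.2, Aldh1a1 11.04, Rdh11 6.90 and Lrat 1.95, beside a median of 2.20. These ranks hold for windows, which can include sites in or near a neighbouring gene. With each site given to its nearest gene instead, Rbp2 had 11 sites, Isx and Aldh1a1 9 each and Rdh7 5. Rdh11 then had 2, and Lrat and Aldh1a7 had 0.

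**Figure D1:**
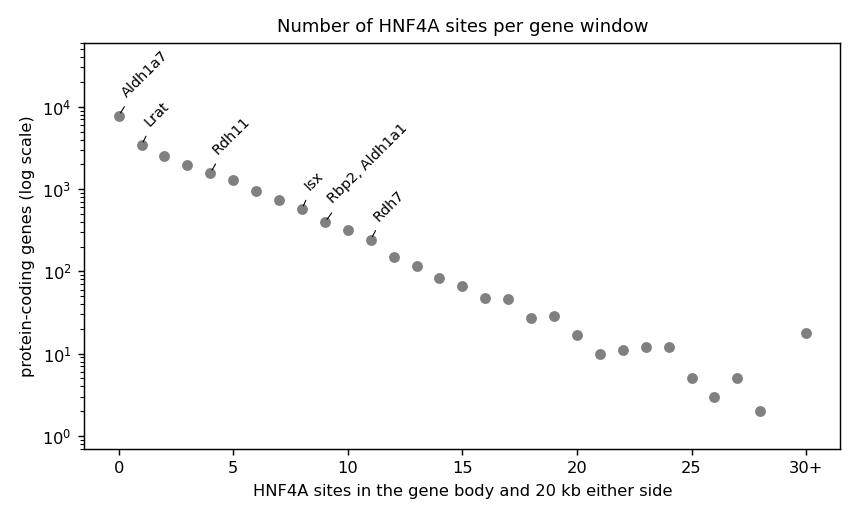
Number of protein-coding genes (y axis, log scale) by the number of HNF4A sites in the gene body and 20 kb either side (x axis, the last point pooling 30 sites or more). Lines mark the vitamin A genes, from Aldh1a7 at 0 sites to Rdh7 at 11, against a median of 2 sites per gene.

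A site lay over the gene start at 5 of the 7 genes, which are Rbp2, Lrat, Rdh7, Rdh11 and Aldh1a1, against 14.7% of protein-coding genes. Isx site 1 began 5 bp past the annotated start, within exon 1. Of the other sites, 14 lay within a gene body, 7 upstream and 16 downstream. The 5 start sites were called in a mean of 6.40 libraries, the gene body sites in 4.29, the upstream sites in 4.86 and the downstream sites in 4.19.

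Calls were then compared between GF+HFM and CV+HFM, the contrast that addresses how a microbiota relates to HNF4A occupancy after the meal. At least 2 of 4 GF+HFM libraries called 32 of the 42 sites, beside 75.7% of all sites, and all 4 called 24, beside 50.6%. At least 2 of 4 CV+HFM libraries called 21, beside 40.8% of all sites. That count was 11 of 43 without CV+HFM replicate 1, beside 20.0% of all sites, and 11 of 42 when replicate 3 was left out, beside 20.1%. At least 1 CV+HFM library called 27 sites, beside 64.4%, and the other 15 had no CV+HFM call, beside 35.6%. The most frequent pattern, all GF+HFM libraries with CV+HFM replicates 1 and 3 only, held at 10 sites, beside 18.7% of all sites, and 11 sites had calls in 7 or 8 libraries, beside 19.3%. More GF+HFM than CV+HFM libraries called 35 of the 42 sites, where 86.5% of all sites had this direction. Calls were equal at the remaining 7, as at 10.7% of all sites, and 0 had more CV+HFM calls, a direction seen at 2.86% of all sites. With the lists at their deposited lengths, most of these shares at the vitamin A genes were close to those of the whole lists. The share with at least 2 CV+HFM calls was higher, at 50% beside 40.8%, and was not tested.

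The lists differed in length. GF+HFM replicates 1 to 4 held 36846, 31061, 34011 and 34183 peaks, and CV+HFM replicates 1 to 4 held 29345, 9206, 21033 and 4533. The GF+HFM libraries called 33, 27, 32 and 36 of the 42 sites, and the CV+HFM libraries called 26, 11, 22 and 6. Over all sites the same libraries called 76.4%, 64%, 72.1% and 74% in GF+HFM and 60.8%, 19.2%, 43.3% and 8.97% in CV+HFM. All CV+HFM counts lay below all GF+HFM counts, with means of 16.25 ± 9.32 (SD, n = 4) and 32 ± 3.74 (SD, n = 4). As shares of the 42 sites these were 38.7% ± 22.2 and 76.2% ± 8.91, beside 33.1% ± 23.4 and 71.6% ± 5.41 for all sites. Relative to the length of genome each list covers, the groups overlapped, with 1284 ± 79.7 bp of vitamin A gene peaks per Mb of peaks in CV+HFM and 1248 ± 76.2 bp in GF+HFM. When each list was reduced to its 4533 widest peaks, the length of the shortest, the GF+HFM libraries called 8, 8, 10 and 11 sites of the remaining 15 and the CV+HFM libraries called 6, 5, 7 and 6. The mean difference was then -3.25 sites in place of -15.75. As mean shares these were 61.7% in GF+HFM and 40.0% in CV+HFM, beside 42.1% and 40.7% of all 10670 sites at that list length. Each GF+HFM count lay above each CV+HFM count. The cut also decided which sites remained, so these counts cannot show a difference between conditions at the vitamin A genes. Each of the 15 sites had a GF+HFM call. Lrat site 1, Isx sites 6 and 8, Rdh11 site 3 and Aldh1a1 site 4 had 0 CV+HFM calls and remained through GF+HFM alone. The cut left CV+HFM replicate 4 whole, narrow peaks included, and kept only the widest peaks of longer lists. It thus matched the lists in length only, and the difference at these sites was not tested. More GF+HFM calls were found at 8 of the 15 sites, beside 40.3% of all sites, and more CV+HFM calls at 2, beside 38.6%.

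Library identifiers in the peak names either carry the letter A or do not, and what the letter stands for is not given in the sources used here. Among identifiers with the letter the mean was 30 sites for GF+HFM (n = 2) and 19.7 for CV+HFM (n = 3). Without it the mean was 34 for GF+HFM (n = 2), and the single CV+HFM library had 6. The direction was the same in each set, for these sites and for all sites. As shares, the vitamin A sites had 71.4% and 46.8% with the letter, beside 70.2% and 41.1% of all sites. Without the letter they had 81.0% and 14.3%, beside 73.1% and 8.97%. Read depth is unknown for all 8 lists, and its part in these counts was not tested.

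**Figure D2:**
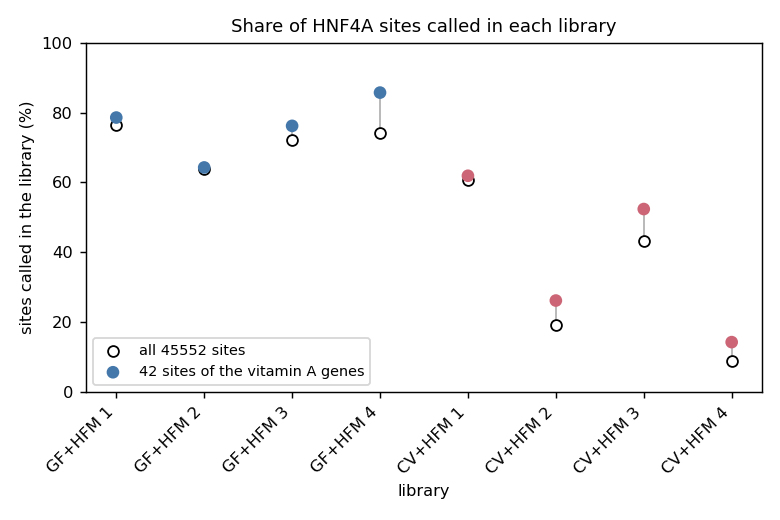
Share of HNF4A sites called in each library (y axis, %) for all 45552 sites (open circles) and for the 42 sites of the vitamin A genes (filled circles, blue for GF+HFM and red for CV+HFM). The filled circles range from 64.3% to 85.7% in GF+HFM and from 14.3% to 61.9% in CV+HFM. Each lies above the open circle of its own library, as with 64.3% beside 64.0% in GF+HFM replicate 2 and 85.7% beside 74.0% in GF+HFM replicate 4.

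The calls of the CV+HFM libraries were nested. All 6 sites of CV+HFM replicate 4 were also called in replicate 2, where 85.2% of all sites of replicate 4 were. All 11 sites of replicate 2 were called in replicate 3, against 96.7% of all its sites, and 21 of the 22 sites of replicate 3 were called in replicate 1, against 92.7%. The exception was Rdh11 site 1, which was called in GF+HFM replicate 1 and CV+HFM replicate 3 and lies within 1 kb of the start of Vti1b. Of the 27 sites with any CV+HFM call, 26 also had 2 or more GF+HFM calls, beside 91.7% of all such sites.

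**Figure D3:**
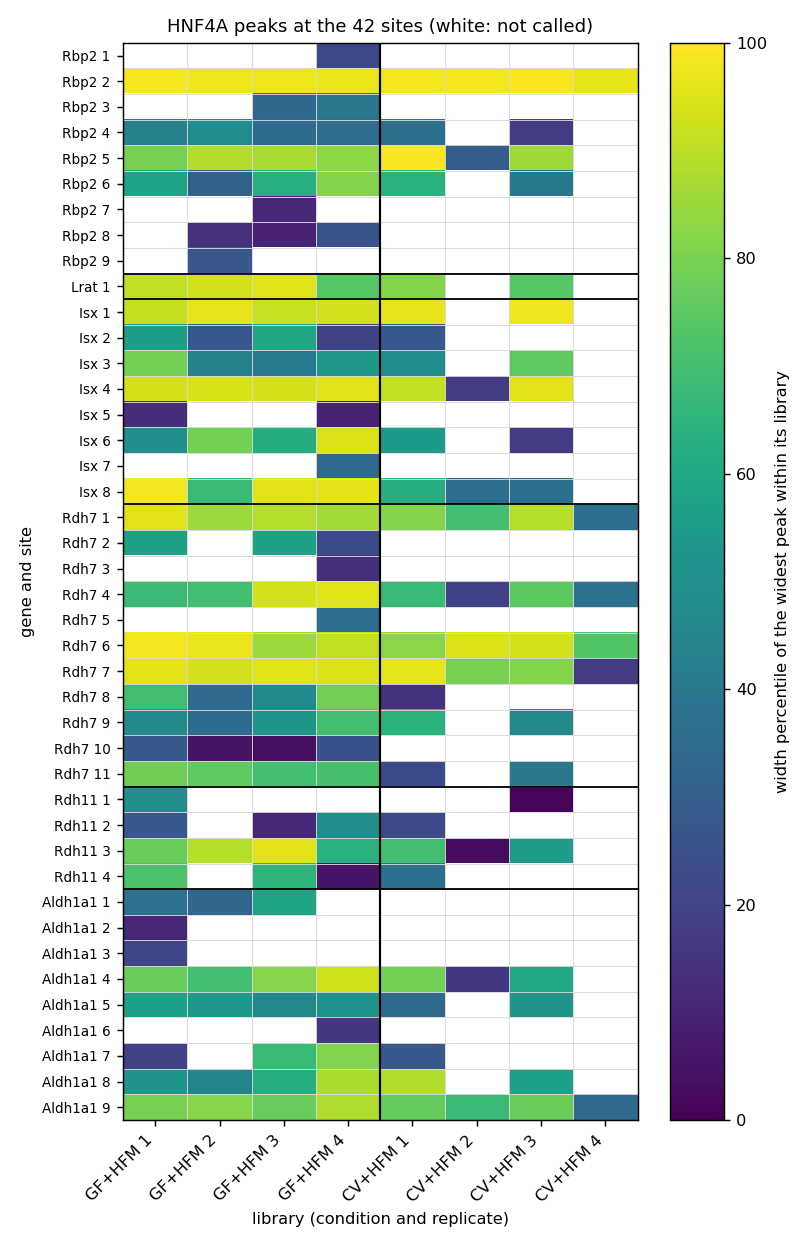
Each row is 1 of the 42 sites and each column a library, with GF+HFM left and CV+HFM right of the black line. Colour gives the percentile, within its library, of the width of the widest peak at the site, and white marks no call. Rbp2 site 2 is above the 96th percentile in all 8 columns, and CV+HFM replicate 4 has colour at 6 sites only.

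No site of the vitamin A genes differed between conditions after adjustment (Fisher's exact test, two-sided, Benjamini-Hochberg over all 45552 sites). The smallest p that 4 against 4 libraries allows is 0.0286, which adjusts to 0.824, so 0 of all sites passed and this design cannot reach the threshold across all sites. Before adjustment, 1 vitamin A site reached this smallest p.

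Rbp2 site 2 spanned the gene start, from 98389786 to 98391244 on chromosome 9, and was called in all 8 libraries. Sites called in all 8 libraries numbered 6 of the 42, where 7.56% of all sites were, and 11 of the 42 had calls in all the others when CV+HFM replicate 4 was left out, beside 18.4% of all sites. The widest peak at Rbp2 site 2 measured 1018, 777, 1133 and 1250 bp in GF+HFM replicates 1 to 4 and 906, 448, 802 and 365 bp in CV+HFM replicates 1 to 4. Because peaks differ in width between lists, each width was ranked within its own library, with a percentile near 100 for the widest. Rbp2 site 2 stood at percentiles 98.5, 97.5, 97.5 and 97.0 in GF+HFM and 98.4, 98.4, 99.04 and 96.3 in CV+HFM. The groups overlapped, and the site stayed among the widest peaks in the long and the short lists alike. With a limit chosen after seeing these values, 43 of all 45552 sites lay in the widest 5% of every list, and this was the only one of the 42 to do so. Only sites called in all 8 libraries can meet that limit. The 43 are 1.25% of the 3445 such sites, beside 1 of the 6 here.

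The other Rbp2 sites were called less evenly. Site 5, in intron 1 from 98393099 to 98394544, was called in 7 libraries, with percentiles of 79.6, 88.6, 87.2 and 83.1 in GF+HFM and 99.5, 29.7 and 85.9 in CV+HFM replicates 1 to 3. Sites 4 and 6, also in intron 1, had calls from every GF+HFM mouse and from CV+HFM replicates 1 and 3. Site 3 in intron 1 and site 8 in intron 2 had 2 and 3 GF+HFM calls and no CV+HFM call. Sites 1, 7 and 9 were called in 1 GF+HFM library each, among 9 of the 42 sites with a single call, where 21.6% of all sites had one.

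Lrat had 1 site, over its start, from 82706538 to 82708263 of chromosome 3, and the gene is on the minus strand. It also lies inside the annotated gene 4930564K09Rik. All 4 GF+HFM libraries called the site, with percentiles of 91.0, 93.1, 94.96 and 73.8, and so did CV+HFM replicates 1 and 3, at 81.3 and 74.1 (p = 0.429, two-sided Fisher's exact test, adjusted p = 0.949). Each of these 6 libraries had at least 2 separate peaks in it, and GF+HFM replicate 4 had 3. CV+HFM replicates 2 and 4, the shortest lists, had no call.

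Isx, on the plus strand of chromosome 8, had sites in exon 1, in intron 1 and beyond its end. Site 1, from 77396623 to 77397635, had a peak in every GF+HFM library, at percentiles 91.1, 96.4, 91.7 and 93.2, and in CV+HFM replicates 1 and 3, at 96.1 and 97.7. Both CV+HFM values lay within the GF+HFM range or above it. Site 2, in intron 1, had 4 GF+HFM calls and 1 CV+HFM call. Downstream of the gene end, 6 sites lay between 901 and 9343 bp from it, and 5 of the 8 Isx sites were called in at least 2 CV+HFM libraries. Site 4, 2613 bp past the end from 77420018 to 77421117, was called in 7 libraries. Its percentiles were 93.4, 94.0, 93.4 and 94.97 in GF+HFM and 90.7, 17.4 and 95.7 in CV+HFM replicates 1 to 3, so that replicate 2 alone was low. Sites 3 and 6 had 4 GF+HFM calls and calls in CV+HFM replicates 1 and 3, and sites 5 and 7 had 2 and 1 GF+HFM calls and no CV+HFM call.

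Isx site 8, 9343 bp past the gene end from 77426748 to 77428034, was also called in 7 libraries. Its percentiles were 98.4, 67.2, 95.5 and 96.0 in GF+HFM and 62.3, 36.2 and 36.5 in CV+HFM replicates 1 to 3. All 3 CV+HFM values lay below the 4 GF+HFM values. Each value is that of the widest peak, and several libraries split the site. CV+HFM replicate 1 had peaks of 283, 367 and 207 bp, replicate 2 of 139 and 162 bp and replicate 3 of 239 and 156 bp. GF+HFM replicates 1 and 4 had single peaks of 1011 and 1165 bp. Replicate 2 of GF+HFM had 364 and 247 bp, and replicate 3 had 978 and 204 bp. The part of splitting in the difference was not tested. Over the 8375 sites called in all libraries other than CV+HFM replicate 4, the width rank of Isx site 8 differed by -1.61 normal-score units, CV+HFM minus GF+HFM (95% confidence interval -2.64 to -0.59), with an adjusted p of 0.409 (limma, Benjamini-Hochberg), which does not pass the threshold. In the same comparison Rdh11 site 3 differed by -1.15 (-2.19 to -0.11), Isx site 4 by -0.58 (-1.59 to 0.43), Aldh1a1 site 4 by -0.55 (-1.43 to 0.32) and Rbp2 site 5 by 0.47 (-0.62 to 1.57), with adjusted p of 0.556, 0.710, 0.683 and 0.783 (limma). The intervals of Isx site 8 and Rdh11 site 3 lay below 0, and that of Rbp2 site 5, the only positive one of these 5, included it. This comparison held 11 vitamin A sites, and before adjustment p was below 0.05 at 713 of its 8375 sites (limma). Ranks in it are among the 8375 sites and not among all peaks of a library.

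Rdh7, on the minus strand of chromosome 10, held 4 of the 6 sites called in all 8 libraries. Sites called in all 8 libraries occurred at 16.8% of protein-coding genes and at 3 of the 7 vitamin A genes, which are Rbp2, Rdh7 and Aldh1a1. Rdh7 site 6, over the start from 127325452 to 127326530, had widths of 996, 751, 700 and 928 bp in GF+HFM and 495, 349, 537 and 167 bp in CV+HFM. All CV+HFM widths were below all GF+HFM widths, but the percentiles overlapped, at 98.4, 97.0, 85.5 and 90.7 against 82.8, 94.2, 93.0 and 73.0.

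Rdh7 site 7, 4044 bp upstream of the gene from 127330139 to 127331227, stood at percentiles 95.7, 93.3, 95.3 and 94.8 in GF+HFM and 96.3, 79.4, 81.4 and 17.9 in CV+HFM. CV+HFM replicate 1 was above every GF+HFM library and replicate 4 was far below. Peaks of at most 7 libraries shared a base at this site, where the peak of CV+HFM replicate 4, 60 bp wide, did not overlap that of CV+HFM replicate 2. Site 4, in exon 2 and intron 2 from 127323293 to 127324479, stood at 68.3, 69.7, 93.3 and 95.1 in GF+HFM and 67.4, 19.2, 74.7 and 37.3 in CV+HFM. Its 8 libraries shared 27 bp. Site 1, from 127303039 to 127303882, is 17202 bp past the end of Rdh7 and within 1 kb of the start of BC089597. It stood at 95.6, 85.4, 88.9 and 86.2 in GF+HFM and 81.5, 70.0, 88.8 and 36.5 in CV+HFM.

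Rdh7 site 10, 12756 bp upstream from 127338851 to 127339210, was the only one of the 42 with calls in 4 of 4 GF+HFM mice and in 0 CV+HFM mice, a pattern that 2.79% of all sites had (p = 0.0286, two-sided Fisher's exact test, adjusted p = 0.824). It lies inside Sdr9c7, a neighbouring short-chain dehydrogenase gene. Its peaks measured 236, 170, 209 and 329 bp and stood at percentiles 28.0, 5.13, 3.86 and 25.4, among the narrower peaks of each GF+HFM list. With only peaks of at least 300 bp kept, 1 GF+HFM library called it. Sites 9 and 11, which flank it inside Sdr9c7, both had calls from every GF+HFM mouse and from CV+HFM replicates 1 and 3. Site 8, within 1 kb of the start of Sdr9c7, had 4 GF+HFM calls and a call in CV+HFM replicate 1. Site 2 was called in 3 GF+HFM libraries, and sites 3 and 5 in GF+HFM replicate 4 alone.

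**Figure D4:**
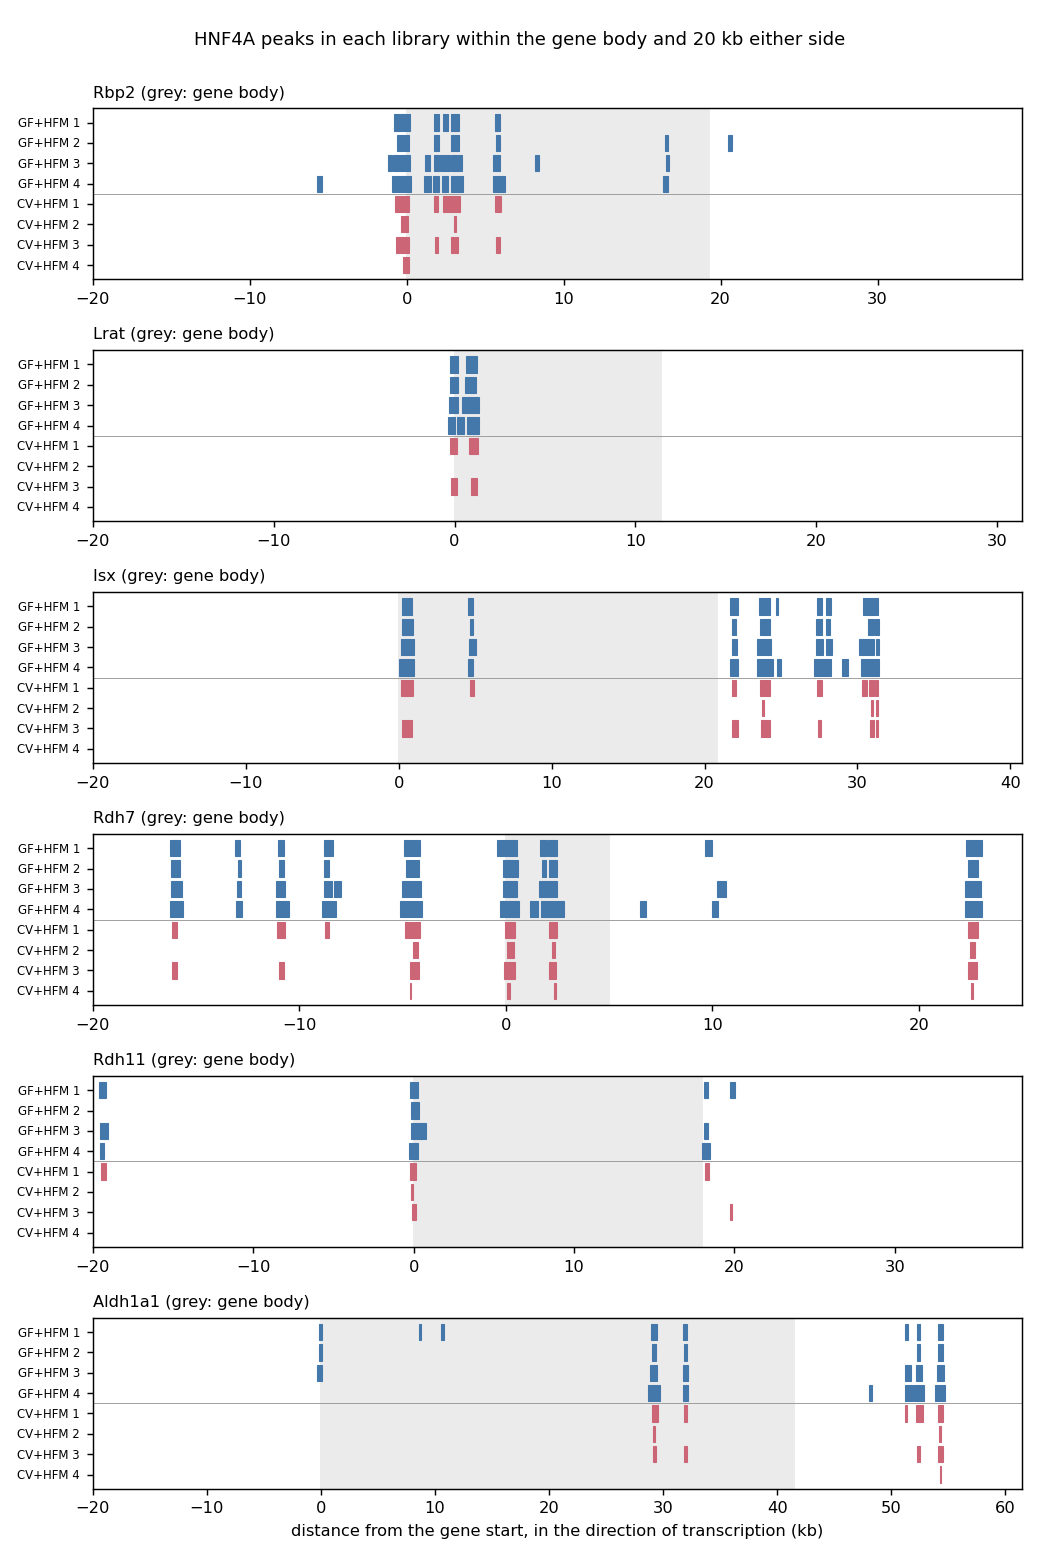
Peaks of each library (rows, blue for GF+HFM and red for CV+HFM) by distance from the gene start in the direction of transcription (x axis, kb), with the gene body in grey and 20 kb shown on either side. Peaks of CV+HFM replicates 2 and 4 fall within sites that are also called in CV+HFM replicate 3, the start of Rbp2 has a peak in all 8 libraries, and Rdh7 has peaks on both flanks.

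Rdh11, on the minus strand of chromosome 12, had its main site over the start, site 3 from 80292498 to 80293566. Its percentiles were 77.0, 88.9, 95.4 and 63.9 in GF+HFM and 69.6, 3.04 and 55.3 in CV+HFM replicates 1 to 3, and replicate 4 had no call. CV+HFM replicate 1 lay within the GF+HFM range and replicates 2 and 3 below it. This site holds the DR1 match AGGGCAAAGGTCA, with 1 mismatch, on the minus strand from 80293266 to 80293278 at the first bases of the gene. Site 2, 48 bp past the gene end, and site 4, which lies inside the related gene Rdh12, each had 3 GF+HFM calls and a call in CV+HFM replicate 1.

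Aldh1a1, on the plus strand of chromosome 19, had its most called site outside the gene. Site 9, from 20730327 to 20731189, is 12375 bp past the gene end and was called in all 8 libraries. Its percentiles were 79.6, 81.9, 76.8 and 88.3 in GF+HFM and 76.3, 67.8, 77.0 and 34.3 in CV+HFM, which overlap through CV+HFM replicate 3. The start site of Aldh1a1, site 1 from 20676116 to 20676569, had calls in GF+HFM replicates 1, 2 and 3 only, at percentiles of 37.7, 33.1 and 58.3 (p = 0.143, two-sided Fisher's exact test, adjusted p = 0.824). It was the start site with the fewest calls of the 5. Within the gene, site 4, in exon 9 and intron 9 from 20705160 to 20706152, was called in 7 libraries, at 77.1, 70.1, 81.7 and 92.6 in GF+HFM and 79.1, 16.1 and 60.3 in CV+HFM replicates 1 to 3. Site 5 in intron 9 and site 8 downstream had calls from every GF+HFM mouse and from CV+HFM replicates 1 and 3. Site 7 had 3 GF+HFM calls and a call in CV+HFM replicate 1, and sites 2, 3 and 6 were called in 1 GF+HFM library each.

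Aldh1a7, a close relative of Aldh1a1, runs from 20767443 to 20802052 on the same chromosome, minus strand, and had 0 sites within 20 kb in any of the 8 lists. A window of 50 kb on either side held 4 sites, and these are Aldh1a1 sites 6 to 9, which lie between the genes. The lists hold only peaks past the caller's threshold, so weaker occupancy is not detectable here.

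Relative width rank was compared with limma at the 3445 sites with a call in every library. In each library the widths were ranked among these 3445 sites only, and the ranks were turned into normal scores. They therefore differ from the percentiles given above, which are among all peaks of a library. Ranked over all peaks instead, the difference was -0.54 at Aldh1a1 site 9, -0.98 at Rdh7 site 7 and 0.11 at Rbp2 site 2. A lower rank in CV+HFM passed at 0.116% of these sites and at 0 of the 6 vitamin A sites, and a higher rank passed at 0 sites. Before adjustment, p was below 0.05 at 398 of the 3445 sites and at 0 of the 6. The 4 sites with a lower rank became between 0 and 20 with 1 library left out (0 when GF+HFM replicate 1, 3 or 4 or CV+HFM replicate 2 or 3 was absent, 5 when CV+HFM replicate 4 was, 14 when GF+HFM replicate 2 was and 20 when CV+HFM replicate 1 was), with 0 vitamin A sites among them each time. The differences, CV+HFM minus GF+HFM in normal-score units, were 0.49 at Rbp2 site 2 (95% confidence interval -0.24 to 1.21, adjusted p = 0.582), -0.34 at Rdh7 site 1 (-1.13 to 0.45, adjusted p = 0.736) and -0.71 at Rdh7 site 4 (-1.70 to 0.28, adjusted p = 0.558). They were -0.12 at Rdh7 site 6 (-1.02 to 0.77, adjusted p = 0.930), -0.70 at Rdh7 site 7 (-1.60 to 0.19, adjusted p = 0.517) and -0.09 at Aldh1a1 site 9 (-0.85 to 0.66, adjusted p = 0.938). Rbp2 site 2 was the only one of the 6 with a positive difference, and all 6 intervals include 0. Single libraries moved some of these values. Without CV+HFM replicate 4, Rdh7 site 7 was at -0.20 (-0.95 to 0.54), Rdh7 site 1 at -0.09 and Rdh7 site 6 at -0.03. Without CV+HFM replicate 1, Rdh7 site 7 was at -1.02 (-1.91 to -0.12, adjusted p = 0.219). In that fit p was below 0.05 before adjustment at 608 of 3446 sites (limma). Rdh7 site 1 was at -0.51 without CV+HFM replicate 3 and at -0.15 without GF+HFM replicate 1, and Rdh7 site 4 ranged from -1.03 to -0.39 and Rbp2 site 2 from 0.44 to 0.58 over the libraries left out. Rdh7 site 6 and Aldh1a1 site 9 changed sign, between -0.37 and 0.13 and between -0.18 and 0.0865. On log2 width without ranking, all 6 differences were negative, from -1.69 at Rdh7 site 7 to -0.81 at Rbp2 site 2, and the intervals of all but Rbp2 site 2 lay below 0. The adjusted p of these 5 was 0.0772 and that of Rbp2 site 2 was 0.137, and at this scale 2006 of the 3445 sites had p below 0.05 before adjustment and 0 after it (limma).

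**Figure D5:**
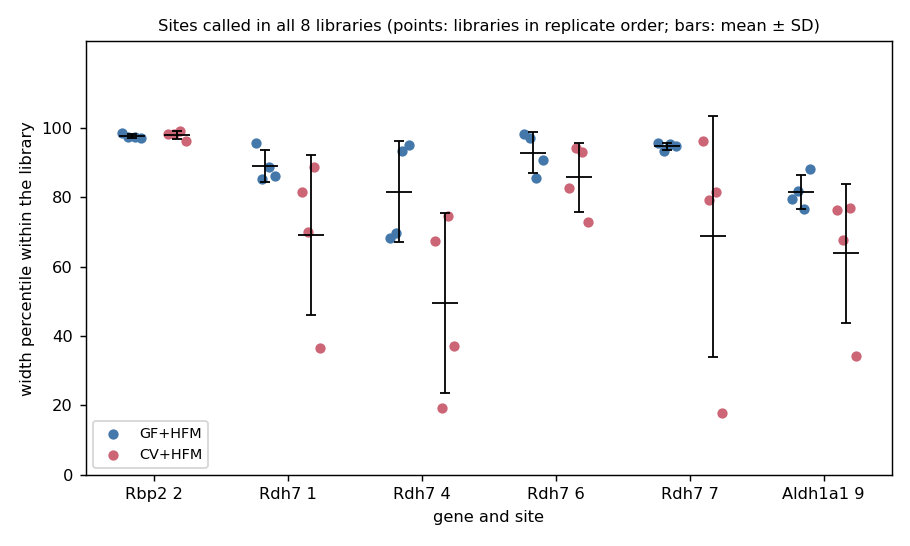
Width percentile within the library (y axis) of the 6 sites called in all 8 libraries, with 1 point per library in replicate order and the mean ± SD (n = 4 per condition). GF+HFM points (blue) and CV+HFM points (red) of Rbp2 site 2 all lie above 96, whereas CV+HFM replicate 4 lies below 40 at Rdh7 sites 1, 4 and 7 and at Aldh1a1 site 9.

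Peak width and number of calls moved together in the GF+HFM libraries. Their median percentile was 91.0 over the 6 sites called in all 8 libraries, 71.5 over the 17 sites called in 5 to 7, 39.8 over the 10 called in 2 to 4 and 21.0 over the 9 called in 1. Over all sites the same classes had 86.7, 57.9, 24.6 and 12.6. The libraries share these sites and the classes are a description without a test.

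Sequence windows of 300 bp, centred on the stretch covered by most libraries, were searched on both strands for the HNF4 motif. With at most 1 mismatch CAAAGTCCA occurred in 16 of the 42 windows (38.1%), beside 36.9% of all 45324 windows and 57.6% of windows at sites called in all 8 libraries. An exact match occurred in 1 window, at Rdh7 site 9 on the minus strand from 127336961 to 127336969, and in 6.36% of all windows. A DR1 with at most 1 mismatch, an arrangement read by HNF4 and PPAR proteins, occurred in 2 windows, at Rdh11 site 3 and at Rdh7 site 8, where it reads AGTTCAAAGGTCA, and in 3.75% of all windows. With at most 2 mismatches it occurred in 8 windows (19.0%) and in 16.6% of all windows. It can overlap the HNF4 motif.

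Elements of retinoic acid receptors, direct repeats of AGGTCA with 2 or 5 bases between the copies, occurred with at most 2 mismatches in 6 and 4 of the 42 windows, beside 7.86% and 5.13% of all windows. The CDX motif TTTATNG occurred in 7 windows, beside 15.5% of all, and the GATA motif AGATAAG in 2, beside 8.72%. A match is a description of the letters and not of binding.

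A wider list of 48 vitamin A genes other than these 7, covering carotenoid uptake and cleavage, carrier proteins, alcohol and retinol dehydrogenases, retinoic acid catabolism and nuclear receptors, had 202 sites in 43 genes, with a median of 3 sites per gene. Of these sites, 159 (78.7%) had 2 or more GF+HFM calls, beside 75.7% of all sites, 90 (44.6%) had 2 or more CV+HFM calls, beside 40.8%, and 18 (8.91%) had calls in all 8 libraries, beside 7.56%. Of the 202, 4 are also sites of the 7 genes. More GF+HFM libraries called 173 of the 202, beside 86.5% of all sites, and more CV+HFM libraries called 2, beside 2.86%. A site called in all 8 libraries was found at 15 of the 48 genes, beside 16.8% of protein-coding genes. A site over the start was found at 12, beside 14.7%, and at least 1 site at 43, beside 65.5%. The genes with most sites were the retinoid X receptor Rxra with 16, the retinyl ester hydrolase Plb1 with 13, and the carotenoid cleavage enzyme Bcmo1, the retinal reductase Dhrs3 and the retinoic acid receptor Rara with 12 each. The 5 genes with 0 sites were Aldh1a2, Aldh8a1, Cyp26a1, Cyp26c1 and Rxrg. The only site of the list with 4 GF+HFM calls and 0 CV+HFM calls, a pattern of 2.79% of all sites, was at Rxra.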

How the data were processed

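Peak lists from HNF4A ChIP-seq of 8 mice, 4 per condition, were used, and the remaining samples of the 32 were not analysed here. Reads were aligned by the authors to mm9 with Bowtie2, and the authors called peaks in each mouse with MACS2 2.1.1.20160309 against 1 input library per condition (bandwidth 300 bp), and deposited 1 unpooled list per mouse. The deposited values are positions in bp, without a count, score or coverage, so depth is unknown and no counting interval can be given. Groups and replicates came from the labels, each library being 1 mouse.

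Starts were converted to positions counted from 1. Peaks sharing at least 1 bp were merged, and a call means that at least 1 peak of the library belongs to the site. Width percentiles are mid-ranks among a library's peaks. No peak ended beyond a chromosome of NCBIM37 on the 22 compared, and 227 sites on other sequences had no gene. Exons and introns follow the transcript with the longest summed exons. Fisher's exact test was run with scipy 1.17.1 and limma 3.58.1 in R 4.3.3, both adjusted after Benjamini-Hochberg with significance at 0.05. Both were first run on simulated data with a known difference. Those runs check the code and not how well either test detects differences in these libraries. Reference sequence was read from NCBIM37 with pysam 0.24.0. Stretches printed are up to 200 bp around the bases shared by most libraries, without untranslated exon bases.

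The genes and lists were chosen with earlier results of these data known. All 7 genes are named. Described in full are the site called in most libraries at each gene (ties by width percentile), start sites, sites called in all 8 libraries and sites called in 4 libraries of one condition and 0 of the other; of the wider list, the 5 genes with most sites are named. Rbp2 site 5, Isx site 8, Aldh1a1 site 4 and the genes of the wider list without a site were named after their values were seen. The alternatives were windows of 10 or 50 kb, the nearest gene, 50% of a site covered, peaks of at least 300 bp, lists of equal length, at least 1 or 3 of 4 libraries, each library left out, other rank scales, the replicate number as a block, and motif windows of 200 or 500 bp.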

Additional observations from a re-analysis of the deposited data

Results flagged for a closer look

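Library values at the vitamin A genes were examined in 47 groups of 4. They were, per library, the sites called, their median width percentile and the bp of vitamin A gene peaks per Mb of peaks. Also examined were sites called per gene and width percentiles of sites called in all 4 libraries of a condition. In 1 group, 1 library stood far from the others. At Isx site 8, 9343 bp past the end of Isx, the width percentile was 67.2 in GF+HFM replicate 2 and 95.5 or higher in the other GF+HFM libraries. The gap made up 0.908 of the group's range, above Dixon's 95% critical value, which chance passes in about 1 of 20 groups. GF+HFM replicate 2 had 2 separate peaks in this site, as did GF+HFM replicate 3.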

How the results depend on the processing

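The count of sites, 42 with 20 kb windows, was 66 with 50 kb windows and 15 with lists cut to their 4533 widest peaks, and 40 to 43 with 1 library left out. The 21 sites called in at least 2 CV+HFM libraries became 32 with 50 kb windows, 7 when peaks had to cover 50% of a site, 12 with peaks of at least 300 bp, 8 with lists of equal length and 11 when 3 of 4 libraries were required, and 11 to 22 with 1 library left out (11 without CV+HFM replicate 1 and 11 without replicate 3). The main share was 50.0% of the vitamin A sites, beside 40.8% of all sites. It was 17.1% beside 15.1% at 50% covered, and 34.3% beside 25.4% with peaks of at least 300 bp. With lists of equal length it was 53.3% beside 45.4%, and with 3 of 4 libraries 26.2% beside 19.5%. The mean difference of -15.75 sites per library became -3.25 with lists of equal length and ranged from -19.75 to -12.3 with 1 library left out. Its direction held in every alternative run, and the mean share of all sites called was lower in CV+HFM in each of them too. That share was 33.1% against 71.6% in the main run and 40.7% against 42.1% with lists of equal length. At equal length some vitamin A sites remained through GF+HFM calls alone, which enters the difference of -3.25. The 6 sites called in every library became 0 when 50% of a site had to be covered, 1 with peaks of at least 300 bp, 2 with lists of equal length and 11 without CV+HFM replicate 4. Over all sites, 7.56% became 0.0439%, 0.772%, 8.03% and 18.4% in the same order. The cause of these changes was not tested, beyond the fewer peaks or longer windows that the alternatives themselves impose.

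No vitamin A site passed the adjusted threshold of either test under any alternative run. For Fisher's exact test this says nothing about robustness, because so few libraries per condition cannot reach the threshold across all sites. With the replicate number as a block, limma called 0 of the 6 vitamin A sites and 4 of 3445 sites, as without it. Same-numbered libraries of both conditions did not deviate together (r = 0.0534, 0.0746, -0.0776 and 0.138), so the numbers were not treated as pairs. Signs that changed belonged to differences that passed no test: Rbp2 site 2 was -0.81 on log2 width in place of rank, where the other 5 sites were between -1.69 and -1.24 with adjusted p of 0.0772 (limma); Rdh7 site 6 ranged from -0.37 to 0.13 and Aldh1a1 site 9 from -0.18 to 0.0865 with 1 library left out. Ranked over all peaks of a library, Rdh7 site 4 was -1.05 (-1.97 to -0.13, adjusted p = 0.308). In that fit p was below 0.05 before adjustment at 534 of 3445 sites (limma). The median of 8 sites per gene was 7 and 11 with 10 and 50 kb windows, and the 43 wider-list genes with a site became 39 and 46. Further settings for these 2 values were chosen after seeing the data: the median was 5 with the nearest gene, 6 with peaks of at least 300 bp, 2 with lists of equal length and 7 to 8 with 1 library left out, and the wider-list genes numbered 39, 24 and 42 to 43 under the last 3. The HNF4 motif was in 14 and 19 windows of 200 and 500 bp, beside 16 of 300 bp. Unknown depth limits every statement about an absent call.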
